A study of Mus musculus with 9 samples.

Results

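Wild-type mouse embryos were compared with embryos carrying a targeted allele of a Notch pathway gene, whichever the gene or dose, to find what every targeted genotype shared. The comparison set the 2 wild-type arrays against all 7 arrays with a targeted Notch1 or Dll3 allele, out of 9 arrays in all. Each array held RNA from whole embryos at 9.5 days post coitum. The targeted arrays comprised 2 labelled Notch1 null (Notch1tm1Con/tm1Con), 1 labelled Notch1 het (Notch1tm1Con/+), 2 labelled Dll3 het (Dll3neo/+) and 2 labelled Dll3 null (Dll3neo/neo), and the controls were +/+. A C57BL/6J strain is named in the label of 1 Notch1 null array only. The labels do not say how many embryos made an array or whether replicates came from separate litters. A p-value here therefore measures no more than how far arrays of a group scatter. Between the 2 wild-type arrays that scatter may be technical. The replicates of Notch1 null, of Dll3 het and of Dll3 null differed in the sex pattern of Xist and Eif2s3y, so they held RNA of different embryos. In the pooled targeted group the scatter also holds differences between genotypes and sexes.

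Notch1 is a receptor that is cut when a ligand on a neighbouring cell binds it, and the released intracellular part joins the DNA-binding protein RBPJ to switch on genes such as those of the Hes and Hey repressor families. Dll3 is a divergent member of the ligand family, expressed in presomitic mesoderm, where it is needed for regular somite formation. At this stage of development the pathway acts in somite segmentation, in keeping neural progenitors from differentiating and in blood vessel formation.

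Each value was a linear ratio of a probe set, the group of short probes that reads one transcript, to a divisor of its own, so levels cannot be set against each other between probe sets. The median of the 9 arrays was exactly 1 for 19847 of 22690 probe sets. With 7 of 9 arrays targeted, their median therefore lies near 1 for most probe sets on which wild type stands apart, and a ratio above 1 in wild type means lower signal in the targeted arrays. Differences below are targeted minus wild type on the log2 scale, from a limma fit over 22626 probe sets. A probe set was called at a Benjamini-Hochberg adjusted p under 0.05.

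A small set of probe sets was called between wild type and the pooled targeted arrays, and in the main fit more of them were lower than higher. The fit called 37 probe sets, 0.164% of those tested, of which 9 were higher (0.0398%) and 28 lower (0.124%). After quantile normalization 22 were higher and 36 lower. With only the Dll3 and wild-type arrays 34 were higher and 35 lower, and with only the Notch1 and wild-type arrays 48 and 88. The 37 of the main fit covered 32 named genes, and 2 of these probe sets had no single symbol. Changes ranged from 1.44-fold to 6.93-fold. In all 37, the 7 targeted arrays lay wholly on one side of both wild-type arrays. Among all probe sets, 5.69% had every targeted array above both wild-type arrays and 6.77% had every one below.

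The 4 probe sets with the largest decreases belonged to Cbl, Ago2, Akap9 and Rbbp4. Cbl, a ubiquitin ligase that marks activated growth factor receptors for degradation, read 4.926 and 6.154 at probe set 1455886_at in the 2 wild-type arrays. In the 7 targeted arrays it had a lowest value of 0.397, a median of 0.983 and a highest of 1.128. Both wild-type arrays thus stood far above every targeted one. The difference was -2.79 ± 0.34 (SE; adjusted p = 0.0146, limma), a 6.93-fold lower signal. Ago2, the protein that cuts RNAs matched by small guide RNAs, read 3.308 and 3.152 in wild type. Its targeted arrays ran from 0.555 through a median of 0.713 to 1.115. The difference was -2.02 ± 0.26 (adjusted p = 0.0175).

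Akap9, a large scaffold that anchors protein kinase A at the Golgi and the centrosome, read 2.56 and 3.261 in wild type at 1437082_at. The targeted arrays had values between 0.632 and 1.273 with a median of 0.923, and the difference was -1.70 ± 0.21. Rbbp4, a histone-binding subunit of several chromatin complexes, read 4.048 and 2.146 in wild type at 1454791_a_at, against 0.784 to 1.549 in the targeted arrays. Here the wild-type arrays themselves differed, and the groups still did not overlap (-1.59 ± 0.26, adjusted p = 0.0452).

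Eif4ebp2, which holds back cap-dependent translation, at 1417084_at read 2.022 and 2.465 in wild type and 0.736 to 1.292 in the targeted arrays (-1.21 ± 0.18). It has 5 probe sets, and the others, at -0.30 to 0.23, were not called. The average of the gene was not called either (-0.24 ± 0.09, adjusted p = 0.370, limma). Ccnd2, a D-type cyclin that drives entry into the cell cycle, read 1.843 and 2.042 against 0.82 to 1.109 at 1448229_s_at (-1.01 ± 0.12). Id4, an inhibitor of basic helix-loop-helix factors, read 2.125 and 1.705 against 0.736 to 1.018 at 1450928_at (-1.07 ± 0.15). In these genes the targeted array nearest to wild type was a Dll3 array.

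Smaller decreases were seen for Tubb2b, a neuronal tubulin (-0.83 ± 0.14), and Tenm4, a teneurin of the cell surface (-0.82 ± 0.10). Ebf1, a helix-loop-helix transcription factor, fell at its called probe set (-0.85 ± 0.10). Tmod2, a cap of actin filament ends (-0.91 ± 0.11), and Rufy3, a protein of neuronal outgrowth (-0.97 ± 0.12), fell by a similar amount. Of the 28 lower probe sets, the smallest change was that of an unnamed probe set, 1448754_at (-0.60 ± 0.09).

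The called probe sets were higher in 7 of the 32 named genes and lower in 25. Kansl1, a subunit of a histone acetyltransferase complex, gave the largest increase. At 1452373_at it read 0.564 and 0.572 in wild type, and 0.978, 1.021 and 1.476 as the lowest, median and highest of the targeted arrays (0.94 ± 0.15, adjusted p = 0.0412). Has2, which makes hyaluronan, at 1418678_at read 0.611 and 0.597 in wild type against 0.93 to 1.254 (0.82 ± 0.13). Hapln1, which links hyaluronan to proteoglycans in the matrix, at 1421633_a_at read 0.66 and 0.578 against 0.945 to 1.174 (0.75 ± 0.11). At these 3 probe sets both wild-type arrays were below the whole targeted range. The other probe sets of Has2 and Hapln1, at 0.36, 0.36 and 0.58, were not called and overlapped.

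Pja2, a RING ubiquitin ligase (0.88 ± 0.14), Smc4, a core subunit of condensin (0.84 ± 0.12), and Sema3a, a secreted axon guidance signal (0.53 ± 0.09), also rose at their called probe sets. Prkci, an atypical protein kinase C of the cell polarity complex, rose by 0.84 ± 0.14, from 0.579 and 0.606 in wild type to between 0.864 and 1.295. Pard6g, a partner of that kinase in the complex, fell by 0.65 on the log2 scale at 1420851_at, from 1.526 and 1.513 to between 0.852 and 1.089. The other probe sets of Prkci and Pard6g, at 0.17 and -0.21, were not called and overlapped. The plot of called probe sets by array shows every value.

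**Figure D1:**
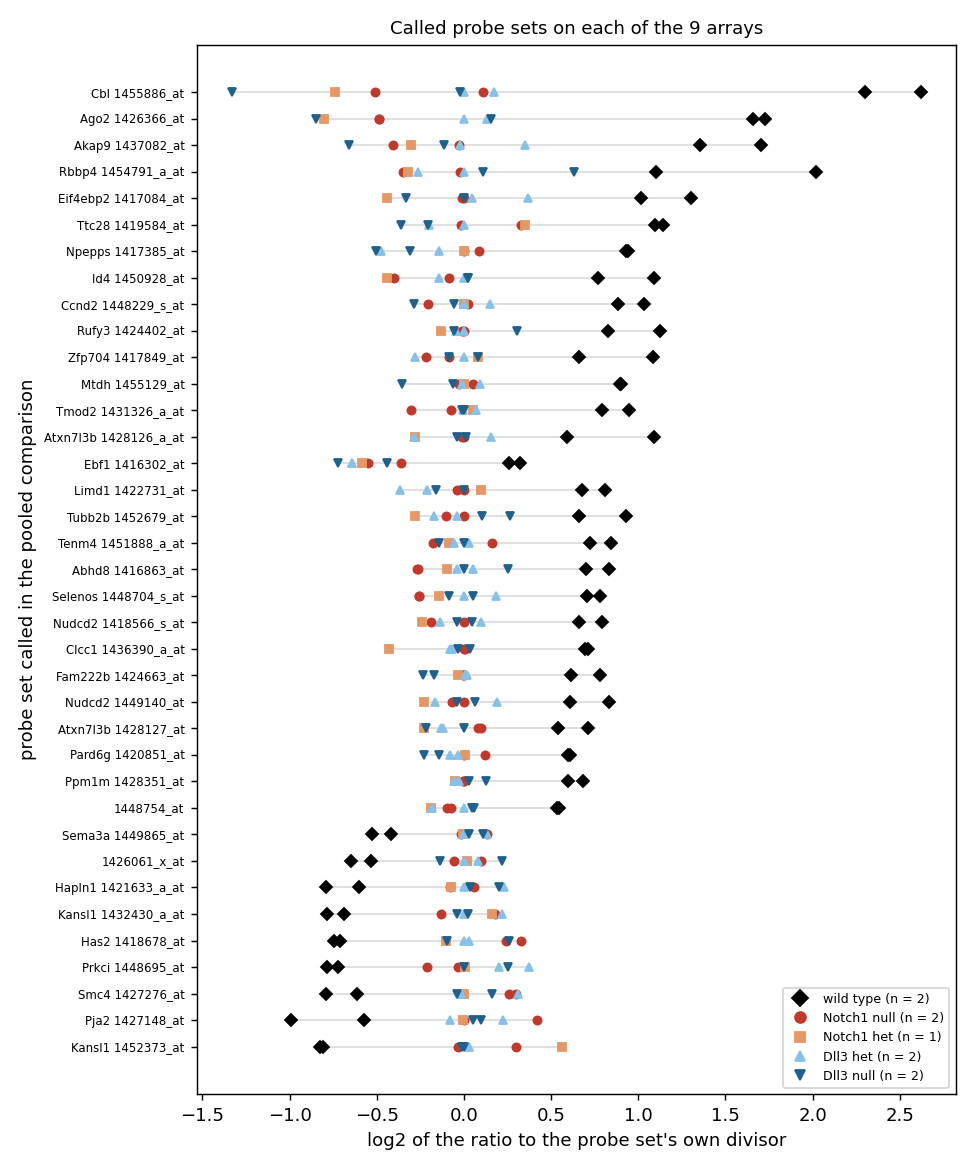
Each row is 1 of the 37 called probe sets and each point 1 array, with the log2 ratio on the horizontal axis; black diamonds are the 2 wild-type arrays and coloured points the 7 targeted arrays by genotype. Wild type lies to the right of every targeted array in 28 rows and to the left in 9.

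The pooled fit selects probe sets on which all targeted arrays differ alike from the same wild-type arrays, so the values per genotype on the 37 are a description and not a test. Over the 37 probe sets the median absolute difference from wild type was 0.89 in Notch1 null, 0.88 in Notch1 het, 0.85 in Dll3 het and 0.85 in Dll3 null, from a fit with 1 mean per genotype. All 4 comparisons use the same 2 wild-type arrays. Cbl differed by -2.66 in Notch1 null, -3.20 in Notch1 het, -2.37 in Dll3 het and -3.14 in Dll3 null. Tested one genotype at a time, 37 of the 37 passed in Notch1 null, 32 in Dll3 het and 13 in Dll3 null. Each genotype had its own adjustment over all probe sets, so these counts also depend on how many other probe sets passed there. Sema3a differed by 0.53 ± 0.11 in Notch1 null (adjusted p = 0.0189) and by 0.54 ± 0.11 in Dll3 null (adjusted p = 0.149, limma). The counts therefore do not rank the genotypes by size of difference. The single Notch1 het array is assumed to vary like the others.

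A moderated F-test for differences among the 4 targeted genotypes called 1370 probe sets (6.05%). It called 0 of the 37, and 6 of them had an unadjusted p under 0.05 (limma). A probe set on which targeted genotypes differ has a wider spread in the pooled fit, so that fit favours probe sets on which they are alike. No single targeted array lay closest to wild type throughout. That place fell to Dll3 het replicate 1 in 9 of the 37, to Dll3 null replicate 1 in 7 and to Notch1 null replicate 2 in 6, with 3 or 4 for each of the others.

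Calls at every probe set of a gene were few, and in most genes no difference between its probe sets was called either. Of the 32 genes, 5 had only 1 probe set, and of the 27 with 2 or more only Kansl1 and Nudcd2 had all of them called. A second fit tested each probe set against the mean of the other probe sets of its gene, over 12943 probe sets of 4956 genes, and called 26 (0.201%). In 9 genes 1 probe set was called and also stood apart from the rest. The other 16 genes lay in between, with part of their probe sets called and no called one apart from the rest. In 13 of these 16 all probe sets differed with the same sign, and the average of 1, Prkci, was called. Probe sequences were not used here, so whether the probe sets of a gene read different transcripts of it was not tested.

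Kansl1 was the one gene called higher at all of its probe sets. The second, 1432430_a_at, read 0.579 and 0.62 in wild type and 0.912 to 1.164 in the targeted arrays (0.80 ± 0.11, adjusted p = 0.0192), and the gene average rose by 0.87 ± 0.11. Nudcd2, a NudC-domain protein, was the one called lower at both. At 1418566_s_at it read 1.729 and 1.579 in wild type and 0.847 to 1.068 in the targeted arrays (-0.79 ± 0.11), and at 1449140_at it read 1.777 and 1.522 against 0.853 to 1.142 (-0.75 ± 0.12). The 2 Nudcd2 probe sets thus gave nearly the same difference, and neither group overlapped the other at either. The count of 2 such genes fell to 0 when either wild-type array, either Notch1 null array, Dll3 het replicate 2 or Dll3 null replicate 2 was left out.

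The 9 genes in which the called probe set stood apart included Cbl, Akap9 and Rbbp4. Cbl had a second probe set, 1450457_at, that differed by -0.92 ± 0.17 without being called (adjusted p = 0.0719). The called Cbl probe set lay -1.87 ± 0.30 below it (adjusted p = 0.0172), and both kept the groups apart, so the Cbl probe sets differed in size and not in direction. Akap9 differed by -1.70 at the called probe set and -0.20 ± 0.17 at the other. Npepps, a cytosolic aminopeptidase, read 1.905 and 1.92 in wild type against 0.705 to 1.062 at 1417385_at (-1.13 ± 0.16). Its other probe set, 1417386_at, differed by 0.07 ± 0.17. Fam222b likewise differed by -0.76 ± 0.10 at one probe set and 0.05 ± 0.08 at the other.

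Mtdh, metadherin, had 6 probe sets, of which the called one differed by -0.94 ± 0.11 and the rest by -0.15 to 0.26. For Rbbp4 the uncalled probe sets differed by -0.19, without overlap, and -0.13, and for Tmod2 by -0.08 and 0.03. In Rufy3 they differed by -0.31 and -0.05. Smc4 moved in both directions. Its called probe set was higher by 0.84, while 1427275_at differed by -1.27 ± 0.26 (adjusted p = 0.0972), the third differed by 0.39 ± 0.10 without overlap, and the average over the gene's 3 probe sets differed by -0.01 ± 0.13. The Smc4 call therefore holds for 1 probe set and not for the gene.

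Among the 16 genes in between, Ccnd2 had 7 probe sets that all differed downward in value, from -1.22 to -0.11, with 1 called. Id4 had 3, at -1.07, -0.91 and -0.50, with 1 called and the groups overlapping at the others. Selenos, an endoplasmic reticulum selenoprotein, had -0.81, -0.76 and -0.28. Atxn7l3b had 2 of 4 called, at -0.90 and -0.70, beside 2 at -0.05 and -0.02. Pja2 differed by 0.88 at the called probe set, by 0.92 at another that was not called (adjusted p = 0.122) and by -0.26 at the third. The uncalled probe sets of Ebf1 differed by -0.69 and 0.02, and those of Sema3a by 0.02 and 0.17.

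**Figure D2:**
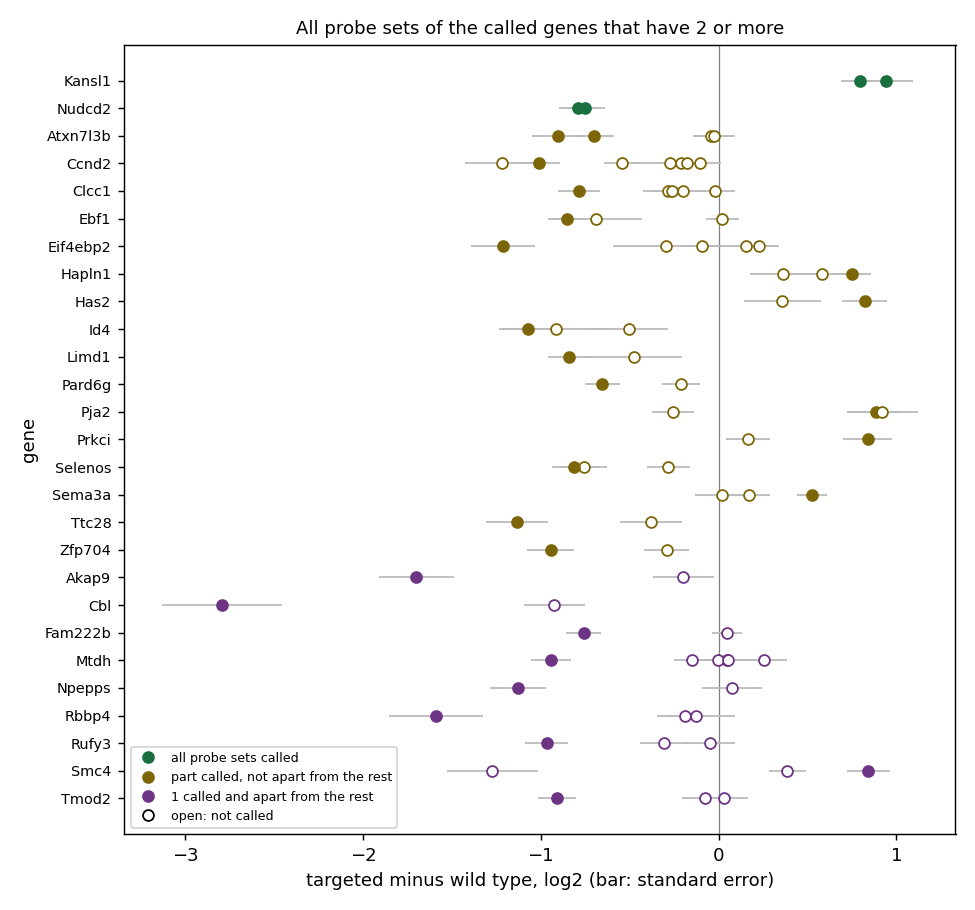
Each row is 1 of the 27 called genes with 2 or more probe sets; points are the targeted minus wild-type differences of all its probe sets on the log2 scale, bars are standard errors and filled points were called. Kansl1 and Nudcd2 have only filled points, whereas Npepps, Fam222b and Mtdh have 1 filled point away from open points near 0.

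When the probe sets of each gene were averaged, 7 of 12393 genes were called (0.0565%), 2 higher and 5 lower, or 5 and 13 after quantile normalization. Ago2, Cbl, Tenm4, Nudcd2 and Ppm1m, a protein phosphatase, fell, and Prkci and Kansl1 rose. Ago2, Tenm4 and Ppm1m have only 1 probe set each. The Cbl average was 3.63-fold lower (-1.86 ± 0.22, adjusted p = 0.0146) and the Prkci average 1.42-fold higher (0.50 ± 0.07, adjusted p = 0.0299). Gene averages with all targeted arrays above both wild-type arrays made up 4.99% of genes, and those with all below 7.1%, which is the measure for the gene groups that follow.

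The targeted genes themselves did not separate the pooled groups. Notch1 at 1418633_at read 0.916 and 1.011 in wild type and from 0.752 to 1.685 in the targeted arrays, with both Notch1 null arrays highest. The pooled difference was 0.15 ± 0.26 (adjusted p = 0.888) there and -0.02 ± 0.32 at the other Notch1 probe set. Dll3 read 1.093 and 1.0 in wild type and 0.804 and 0.933 in the Dll3 null arrays, and differed by -0.07 ± 0.13 over all targeted arrays (adjusted p = 0.893). The sources used here do not say where these probes lie relative to the altered sequence, and the values therefore do not check the labels.

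Of 37 measured genes of the Notch pathway, 0 were called as averages, and 2 lay above and 1 below without overlap. These counts became 5 and 0 with median centring and 4 and 1 with quantile normalization. Adam10, a protease that cuts Notch receptors, had the lowest p (0.36 ± 0.09, adjusted p = 0.18). Of 22 genes listed as Notch targets, 0 were called as averages, while 1 gene lay above and 3 below without overlap, which is 4.5% and 13.6%. With median centring or quantile normalization 3 lay above and 3 below, 13.6% each. The called Id4 probe set is among their probe sets. The 3 below were Id4, Hes6 and Hes5, the last a main effector of Notch signalling in neural progenitors. The list was chosen with earlier results of these data known. Whether Notch regulates Id4 or Hes6 in these embryos was not tested, so the share is no measure of Notch output. Hes5 at 1423146_at read 1.519 and 1.474 in the wild-type arrays, 0.493 and 0.428 in Notch1 null, 0.772 in Notch1 het, 0.873 and 1.0 in Dll3 het and 1.123 and 1.049 in Dll3 null. At this probe set all targeted arrays were below wild type and the Notch1 null arrays were lowest. Its pooled difference did not pass (-0.95 ± 0.33, adjusted p = 0.291), while the targeted genotypes differed among themselves (adjusted p = 0.00570). The other Hes5 probe set, 1456010_x_at, had a smaller pooled difference (-0.57, adjusted p = 0.486, limma).

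The promoter sequences of Hes5 and Id4, both on the Notch target list, are shown beside that of Nudcd2 to place the RBPJ core motif. Nudcd2 is the gene called lower at all its probe sets. Each runs from 250 bases before the gene start to 50 after it, from RefSeq on GRCm38.p6, and capitals mark TGGGAA or its reverse complement TTCCCA. Hes5 lies on the + strand at chr4:154960673-154960972 and holds 2 cores, starting 226 and 82 bases before the start. Id4 lies on the + strand at chr13:48260866-48261165 and holds 1, starting 245 bases before it. Nudcd2 lies on the + strand at chr11:40733411-40733710 and holds 0 in this window.
Hes5: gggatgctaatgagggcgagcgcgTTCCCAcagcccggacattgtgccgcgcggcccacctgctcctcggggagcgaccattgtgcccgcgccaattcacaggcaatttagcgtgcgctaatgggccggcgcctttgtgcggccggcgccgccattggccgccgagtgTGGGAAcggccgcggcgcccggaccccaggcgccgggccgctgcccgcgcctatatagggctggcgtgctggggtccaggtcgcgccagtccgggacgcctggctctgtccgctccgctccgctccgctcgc
Id4: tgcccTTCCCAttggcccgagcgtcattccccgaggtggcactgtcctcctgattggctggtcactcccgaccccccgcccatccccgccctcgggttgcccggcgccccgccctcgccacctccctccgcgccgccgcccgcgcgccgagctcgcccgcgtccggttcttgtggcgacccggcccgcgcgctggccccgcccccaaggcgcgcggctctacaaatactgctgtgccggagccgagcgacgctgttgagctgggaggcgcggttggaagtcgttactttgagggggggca
Nudcd2: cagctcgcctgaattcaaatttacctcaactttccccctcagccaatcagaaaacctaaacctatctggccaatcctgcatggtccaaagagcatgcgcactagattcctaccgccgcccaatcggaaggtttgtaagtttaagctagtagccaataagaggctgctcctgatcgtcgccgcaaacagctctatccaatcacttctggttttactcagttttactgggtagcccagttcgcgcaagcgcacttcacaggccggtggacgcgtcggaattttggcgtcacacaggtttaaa
Of the 32 called genes, 22 had an entry, with 30 promoters. The RBPJ core occurred in 8 of these 30 (26.7%) and in 25.6% of all 32851 promoters. ACGTG or CACGT, the core of the hypoxia response element on either strand, occurred in 7 of the 30 (23.3%) and in 19.6% of all. Matches to both motifs can share bases, and a match is a description of the sequence only.

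Other Notch and segmentation genes gave mixed values. Nrarp, a feedback inhibitor of the pathway, differed by -0.79 ± 0.23 at 1417985_at with all targeted arrays lower, and by -0.17 ± 0.20 at 1417986_at with overlap. Hes1, Hes7, Hey1, Hey2, Dll1, Mesp2 and Tbx6 overlapped between the groups, and their differences lay between -0.24 and 0.39 with no call. Lfng, a glycosyltransferase that modifies Notch receptors, differed by 0.01 and 0.19 at its 2 probe sets. One of the 3 Heyl probe sets lay below wild type in all targeted arrays (-0.29 ± 0.15, adjusted p = 0.506).

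In the segmentation clock and presomitic mesoderm list, 0 of 36 genes were called as averages, while 6 lay above (16.7%) and 2 below (5.6%) without overlap, with a median of 0.10 against -0.01 over all genes. Snai1, a repressor of epithelial genes, had the lowest p (-0.54 ± 0.10, adjusted p = 0.080), followed by Msgn1, a factor of unsegmented mesoderm (0.39 ± 0.11), and Dusp6, a phosphatase of ERK (0.36 ± 0.10). Of 31 genes of somite derivatives, 0 averages were called, 6 lay below (19.4%) and 1 above. The 3 of lowest p were Ebf1 (-0.51 ± 0.11), Pax3, a regulator of dermomyotome and neural crest (-0.82 ± 0.18), and Twist1 (-0.53 ± 0.15). Uncx, a homeobox gene of the caudal somite, read 1.38 and 1.321 in the wild-type arrays, 0.621 and 0.507 in Notch1 null, 1.218 in Notch1 het, 1.0 and 1.031 in Dll3 het, and 0.816 and 0.76 in Dll3 null. It was below wild type in each targeted array, lowest in Notch1 null, and was not called (-0.72 ± 0.27, adjusted p = 0.327).

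Neuronal differentiation genes had mostly negative differences. Of 52 measured, 0 averages were called, 12 lay below without overlap (23.1%) and 0 above, 43 had a negative difference, and the median was -0.15. After quantile normalization 10 lay below (19.2%). Dcx, a microtubule protein of migrating neurons, had the lowest p (-0.47 ± 0.10, adjusted p = 0.12), with Ebf2 (-0.38 ± 0.10) and Dpysl3 (-0.27 ± 0.08) next. Tubb3, a tubulin of neurons, read 2.08 and 1.584 in wild type against 0.382 to 1.316 (-1.32 ± 0.40, adjusted p = 0.238). The mean of the list was 0.15 and 0.11 in wild type, -0.26, -0.24 and -0.15 in the Notch1 arrays and -0.05 to 0.05 in the Dll3 arrays. The median was -0.21 with only the Notch1 arrays and -0.09 with only the Dll3 arrays; the difference between them was not tested. In bulk RNA, fewer neurons and less RNA per neuron cannot be told apart.

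Of 71 oxidative phosphorylation genes, 18 lay below wild type in every targeted array (25.4%), 0 lay above, and 0 averages were called. After quantile normalization 14 lay below (19.7%), against 5.86% of all genes. The lowest p belonged to Ndufb10 (-0.63 ± 0.17), followed by Sdhc (-0.26 ± 0.08) and Ndufs7 (-0.36 ± 0.11), subunits of the respiratory chain. The list's median was -0.15, and it was -0.28 with only the Notch1 arrays and -0.05 with only the Dll3 arrays. Mitochondrial ribosomal proteins had a negative difference in 67 of 71 genes, 9 of them without overlap (12.7%), led by Mrps15 (-0.61 ± 0.13). After quantile normalization 6 lay below (8.5%), nearer to the 5.86% of all genes. Their mean was -0.31, -0.32 and -0.17 in the Notch1 arrays, between -0.02 and 0.07 in the Dll3 arrays and 0.06 and 0.09 in wild type. Of 42 cytosolic ribosomal proteins, 7 lay below (16.7%), or 6 after quantile normalization, and 0 above, with a median of -0.07.

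Hypoxia and glycolysis genes had a raised pooled median that came with high values in 1 genotype. Their median was 0.25, with 0 averages called, 7 of 56 above wild type without overlap (12.5%) and 0 below. The list mean was 0.61 and 0.84 in the Notch1 null arrays and between -0.11 and -0.05 in the other 5 targeted arrays, against -0.10 and -0.15 in wild type. Bnip3, a mitochondrial protein induced by low oxygen, read 3.418 and 3.595 in Notch1 null, 0.961 and 1.0 in wild type and 0.973 to 1.012 in the remaining arrays. Only its Notch1 null arrays stood apart. Slc2a3, a glucose transporter, read 0.537 and 0.467 in the wild-type arrays at 1421924_at, 2.145 and 2.196 in Notch1 null and 0.918 to 1.296 in the other targeted arrays. At this probe set every targeted array was above wild type, and the pooled difference was not called (1.37 ± 0.32, adjusted p = 0.142). The other Slc2a3 probe sets differed by 1.34, 0.51 and 0.62 and were not called either.

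**Figure D3:**
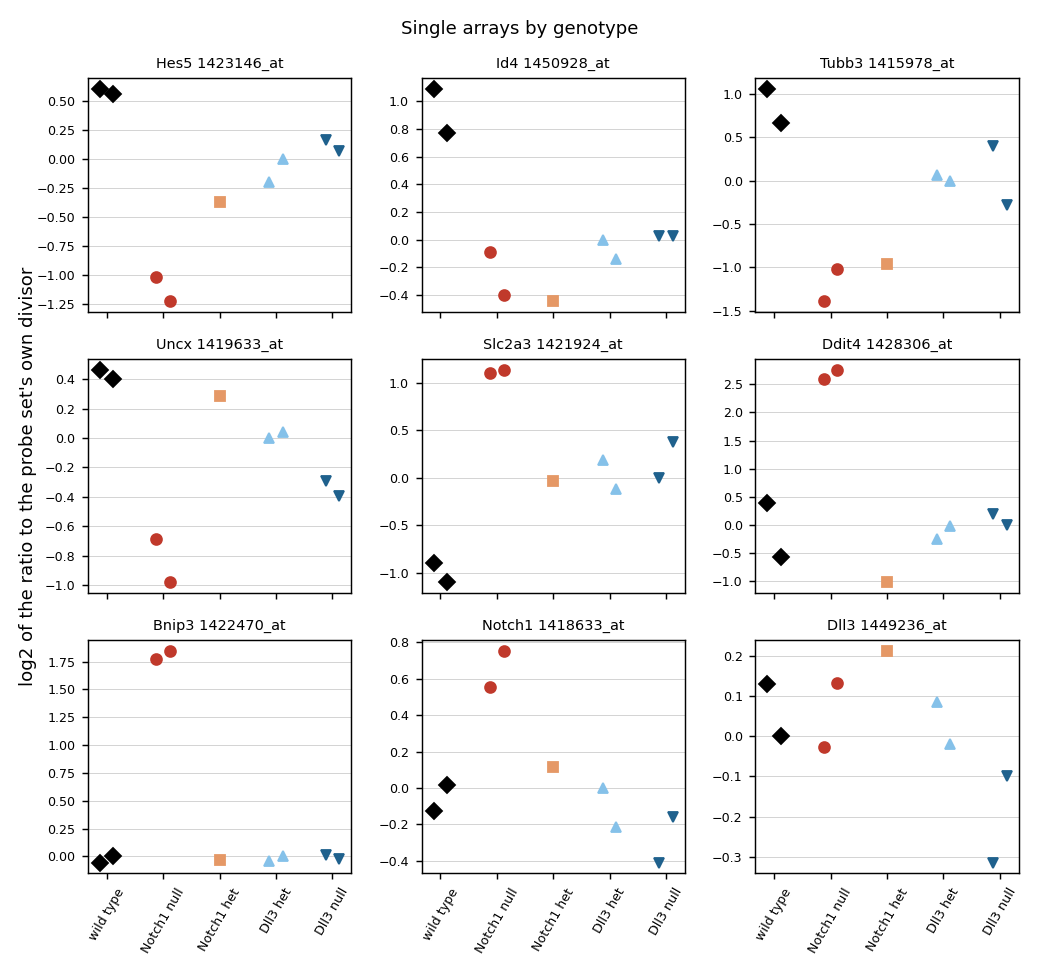
Each panel is 1 probe set, with the log2 ratio of each array on the vertical axis by genotype. Id4 at its called probe set, 1450928_at, is below wild type in all 7 targeted arrays, whereas Bnip3 stands apart in the 2 Notch1 null arrays only and Dll3 overlaps between groups.

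Several lists were written knowing which genes had been called, among them those of ubiquitin ligases, RNA silencing, chromatin remodelling and translation, so their counts are no independent evidence. Of 32 ubiquitin ligases, Cbl was called lower and 6 lay above without overlap (18.8%), or 3 after quantile normalization. Nedd4, a ligase of membrane receptors, had an average of 0.49 ± 0.10 (adjusted p = 0.099) and Wwp1, of the same family, 0.40 ± 0.11. Of 13 RNA silencing genes Ago2 alone was called, with 2 above and 1 below without overlap. Of 41 chromatin genes Kansl1 was called, with 4 above and 4 below. In the cell cycle list 2 of 51 lay above and 7 below (13.7%), or 3 and 6 after quantile normalization, led by Ccnd2 (-0.51 ± 0.10) and Kif11, a spindle motor (0.48 ± 0.11).

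Lists of other embryonic tissues had no called averages. Of 47 neural crest genes 3 lay above and 7 below without overlap (14.9%). The lowest p belonged to Barx1, a homeobox gene of facial mesenchyme (-0.83 ± 0.15, adjusted p = 0.080), and Cdh6, a cadherin, had the opposite sign (0.49 ± 0.12). Of 44 endothelial genes 4 lay above and 1 below, the last being Plvap, a protein of endothelial fenestrae (-0.57 ± 0.15), and after quantile normalization 2 and 0 did. Of 47 cardiac genes 2 lay above and 4 below, or 3 and 3 after quantile normalization, among them Myh6, the cardiac alpha myosin heavy chain (0.40 ± 0.11), and Tbx2, a T-box repressor (-0.56 ± 0.13). Hoxb5 had the lowest p of 30 Hox genes (-0.54 ± 0.09, adjusted p = 0.051), with 1 gene of that list above and 3 below. Of 43 proteasome genes 37 had a negative difference and 5 lay below without overlap (11.6%), or 4 after quantile normalization, led by Psma3 (-0.29 ± 0.08).

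**Figure D4:**
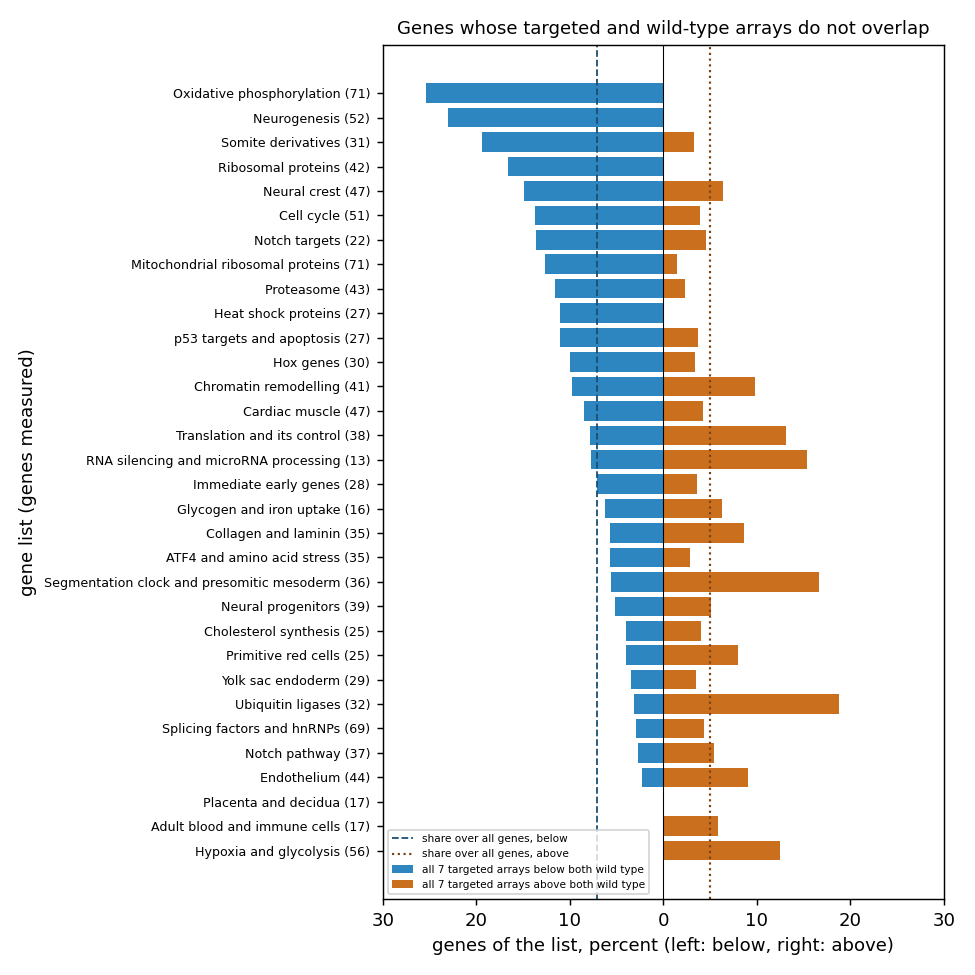
Bars give, for each gene list (number of genes measured in brackets), the percent of genes with all 7 targeted arrays below (left) or above (right) both wild-type arrays; lines mark the shares over all genes, 7.1% below and 4.99% above. Oxidative phosphorylation and neurogenesis reach furthest to the left, at 25.4% and 23.1%.

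Markers of tissues that a dissected embryo can carry did not separate the groups as lists. Placenta and decidua genes had 0 of 17 without overlap, with list means of -0.34 and -0.22 in wild type and -0.31 to -0.10 in the targeted arrays. Adult blood genes had 1 of 17, and yolk sac endoderm genes 1 above and 1 below of 29. The yolk sac list mean was -0.17 and 0.24 in wild-type replicates 1 and 2, and 0.16 and -0.26 in the Notch1 null replicates. It ran from -0.26 to 0.21 over the targeted arrays, so yolk sac signal was uneven within both groups. Whether this unevenness bears on the calls was not tested. Because each probe set was divided by its own number, whether any marker was absent could not be read.

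Some technical measures also separated wild type from the targeted arrays. All 4 poly-A controls, bacterial transcripts that the array maker supplies for addition to the RNA, were highest in both wild-type arrays, by 9.34-fold for dap, 3.79-fold for thr, 2.12-fold for phe and 1.85-fold for lys over the targeted geometric mean. For dap the wild-type arrays read 6.61 and 9.20, the Notch1 arrays 5.26, 2.62 and 1.0, and the Dll3 arrays 0.360 to 0.403. The hybridisation controls overlapped between the groups, at 1.11-fold to 1.29-fold. The Gapdh signal at the 3′ end over that at the 5′ end was 0.081 and 0.158 on the log2 scale in wild type and -0.096 to 0.073 in the targeted arrays. The same measure of b-actin overlapped, at 0.0054 and 0.068 in wild type and -0.114 to 0.163 in the targeted arrays. Both wild-type arrays had a male pattern of Xist and Eif2s3y, as did 3 of the 7 targeted arrays, and the other 4 a female one. Every targeted array numbered replicate 1 was female in pattern and every one numbered replicate 2 male. Over probe sets the wild-type arrays correlated with each other at 0.765 and with targeted arrays at 0.427 to 0.649, and targeted arrays correlated among themselves at 0.426 to 0.804. The part of these measures in the calls was not tested beyond 3 added or planned fits: with the poly-A level as a covariate 1320 probe sets were called, with sex pattern 0, and with only male-pattern arrays 2.

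**Figure D5:**
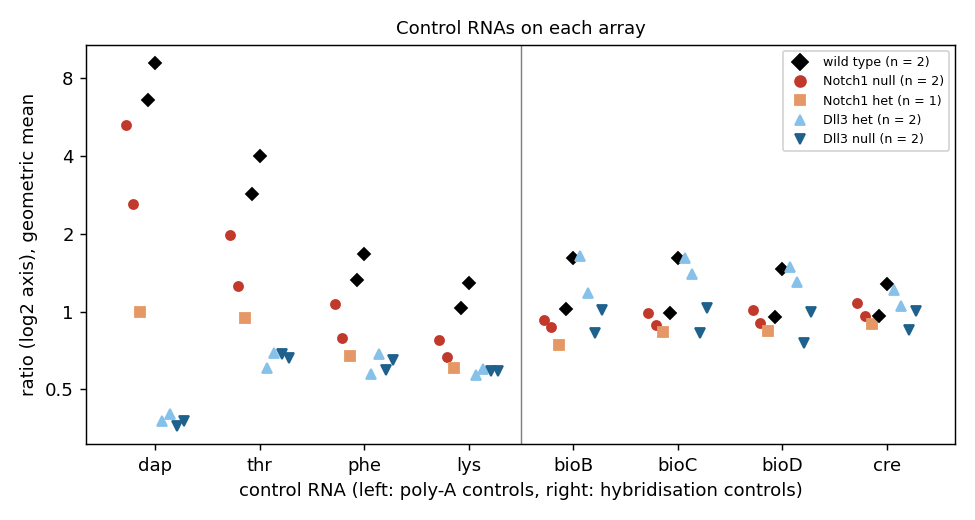
Points are single arrays, with the geometric mean ratio of each control RNA on a log2 axis. The wild-type arrays are above all targeted arrays for the 4 poly-A controls (dap 6.61 and 9.20 against at most 5.26) and overlap them for the 4 hybridisation controls.

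The calls rest on the 2 wild-type arrays. Without wild-type replicate 1 there were 2 calls, of which 0 were among the 37, and without wild-type replicate 2 there were 0, with 1734 probe sets at an unadjusted p under 0.05 (limma). The gene averages called numbered 1 and 0 without wild-type replicates 1 and 2, and the probe sets apart from their gene 2 and 0. The 1370 that differ among targeted genotypes numbered 22 without Notch1 null replicate 2. With Dll3 het left out there were 0 pooled calls, with 2470 probe sets at an unadjusted p under 0.05, and with Dll3 null left out 3. An exact two-sided permutation test has 36 choices of 2 arrays and cannot go below p = 0.0278. All 37 calls were at that value, as were 1526 probe sets in all, and its lowest adjusted p was 0.412.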

How the data were processed

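Whole 9.5 dpc mouse embryos were measured on 9 Affymetrix arrays. The submitters' processing notes name RMA, with no version. The deposited values are linear ratios; no source used here states the divisor, which removes absolute level and detection. No genome build is named for them.

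Ratios were taken to log2 (pseudocount 0) and tested with lmFit and eBayes of limma 3.58.1 (R 4.3.3), after 64 control probe sets were set aside, leaving 22626. Of these 20380 carry 1 symbol (12393 genes), 691 several and 1555 none. The pooled fit had 7 residual and 4.31 prior degrees of freedom, and the 5-genotype fit 4 residual. P-values were adjusted by Benjamini-Hochberg over all features of a fit. The number of arrays limits the precision. The pooled and within-gene fits were tested on simulated data. These were independent normal values without differences in genotype among targeted arrays, sex or control RNA, so they cannot show how the fits behave under such differences.

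Named genes were the 15 highest and 15 lowest non-overlapping calls with 1 symbol, up to 8 whole-gene and 8 single-probe-set genes, 19 fixed genes and, per list described, 2 to 4 with the lowest p. The other called genes named were chosen after their values were seen. Of 1325 genes in 33 lists, 1142 were measured. The members and lists were chosen with earlier results of these data known. Alternatives were other scalings, weights, covariates, thresholds, groups and single arrays left out. The labels do not pair replicate numbers, and correlations of replicate differences ran from -0.098 to 0.159. Among targeted arrays the number coincides with the sex pattern, so a replicate block there also takes up sex.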

Additional observations from a re-analysis of the deposited data

Results flagged for a closer look

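Among the 7 targeted arrays, 1 array stood apart from the others in 3 of 54 named probe sets by Dixon's test, which chance passes in about 1 group in 20. Rufy3 at 1424402_at read 1.233 in Dll3 null replicate 1 against 0.913 to 1.001 in the others. Mtdh at 1455129_at read 0.782 in the same array against 0.958 to 1.064. Tmod2 at 1431326_a_at read 0.809 in Notch1 null replicate 2 against 0.951 to 1.049.

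The 4 targeted genotypes differed among themselves in 15 named probe sets, by limma's moderated F-test. Bnip3 (adjusted p = 0.000456), Ddit4, a stress-induced inhibitor of mTOR signalling (0.00226), and Slc2a3 were highest in the Notch1 null arrays, with adjusted p of 0.00389, 0.0106, 0.0131 and 0.0136 at the 4 Slc2a3 probe sets. Hes5 (0.00570 and 0.00800), Uncx (0.0106) and Tubb3 (0.0220) were lowest there, as was the proneural factor Neurog2 (0.0136). The adjusted p was 0.0388 for Nrarp at 1417986_at, 0.0183 for Notch1 at 1418633_at, and 0.0430 and 0.0421 for the 2 Lfng probe sets.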

How the results depend on the processing

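The 37 pooled calls became 650 with 1 mean per genotype weighted equally and 558 with arrays weighted equally, 172 with array weights, 58 with quantile normalization and 16 with the replicate block. They became 136 with only the Notch1 and wild-type arrays, 69 with only the Dll3 and wild-type arrays, 24 without Notch1 null and 3 without Dll3 null. Counts of 0 came with sex pattern as a covariate (2121 at an unadjusted p under 0.05), without Dll3 het (2470), at an adjusted p under 0.01 and in the exact permutation test, where 1526 had an unadjusted p under 0.05. Alternatives chosen after seeing the data gave 1320 with the poly-A level as a covariate and 2 with only male-pattern arrays. These kept 25 and 1 of the 37. Leaving out single arrays gave 0 to 51 calls. The other alternatives stayed between 32 and 41.

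The 26 probe sets apart from the rest of their gene numbered 0 to 40 with single arrays left out. The 1370 that differ among targeted genotypes became 409 with quantile normalization, 911 with the replicate block and 22 (without Notch1 null replicate 2) to 1382 with single arrays left out. The 7 gene averages became 18 with quantile normalization, 24 when each gene was read by its most variable probe set and 0 to 16 with single arrays left out. The 2 whole genes became 0 with the replicate block and 0 to 2 with single arrays left out, and the 9 single-probe-set genes 0 to 12. Where 1 wild-type array is left out that group has 1 array, assumed to vary like the rest. Over the named probe sets and all alternatives, 1284 of 1617 outcomes stayed on their side of the threshold, 290 lost the call and 43 gained one. All 290 losses fell on the 26 called probe sets, and the total also counts 28 uncalled ones that mostly stayed uncalled. It therefore overstates how stable the calls were. A called probe set kept its call in 9 of 30 alternatives (Sema3a) to 25 of 30 (Cbl). The sign changed in 32 outcomes of 9 uncalled probe sets, among them those of Notch1, Dll3 and Lfng, and 0 of these outcomes passed the threshold. The 26 called named probe sets changed sign in 0. The cause of these changes was not tested. The divisor hides signal over background, so no limit from dimness can be given.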
